A study of Sus scrofa with 48 samples.

Results

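The cytosolic ribosomal protein genes encode the proteins of the ribosomes that translate nuclear messages. They were found among the 22924 gene identifiers of the pig count table by symbol. A gene was taken if its symbol starts with RPL or RPS followed by a digit, or is RPSA, RPLP0, RPLP1 or RPLP2, and the RPS6K kinases and RPS19BP1 were dropped. This gave 51 genes, 26 of the large subunit and 25 of the small subunit. Of these, 45 are standard ribosomal proteins (21 large, 24 small) and 6 are close copies (RPL3L, RPL10L, RPL7L1, RPL26L1, RPL36AL and RPS27L). Of the 80 proteins of the standard mammalian ribosome, 33 had no identifier with a matching symbol (26 large, 7 small) and are not analysed here, RPS6, RPS19, RPL10A and RPL41 among them. FAU and RACK1, ribosomal proteins whose symbols the rule leaves out, were measured beside the family. The 51 genes lie on 15 chromosomes, 9 of them on chromosome 1.

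Poly(A) RNA was sequenced from the ileum, the last stretch of the small intestine, and from the hypothalamus, the brain region that governs feeding and growth hormone release, of piglets after weaning. Piglets were classed by their average daily gain, as low growth or high growth, up to day 7 or day 39. The 8 groups were low growth and high growth ileum on day 39, low growth and high growth ileum on day 7, and the same 4 groups of hypothalamus, with 6 libraries each and 48 in all. The labels state no genotype, strain, sex, diet or age beyond the day, all animals are pigs that had been weaned, and growth is an observed trait rather than an assigned treatment. The labels do not say which ileum and hypothalamus libraries come from one animal, so tissues were compared as separate sets of libraries. Nothing in the labels says that libraries of one group are separate animals, and the p-values measure the spread between these libraries.

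Libraries held 14.2 M to 23.2 M estimated counts (median 16.4 M). The tissue labels were checked against marker genes. FABP6 and VIL1, of ileal enterocytes, were at 877 to 7510 CPM and 470 to 1658 CPM in ileum, and no hypothalamus library exceeded 0.30 CPM of either. SNAP25, of neurons, was at 0.82 to 9.47 CPM in ileum and 155 to 1121 CPM in hypothalamus. The sum of 8 regional genes of the hypothalamus was 3.07 to 15.51 CPM in ileum and 10.2 to 22426 CPM in hypothalamus. The lowest hypothalamus library, of day 39 low growth, lay within the ileum range. Medians of low and high growth hypothalamus were 267 and 2078 CPM on day 39, and 449 and 2395 CPM on day 7, with overlap. The part of these regional genes in the hypothalamus growth comparisons was not tested. The GABA enzymes GAD1 and GAD2 were nearly absent from one hypothalamus library, day 39 low growth replicate 3 (0.72 and 0.30 CPM, against medians of 108.55 and 116.82 CPM over hypothalamus). Ileum day 7 high growth replicate 1 had 12699 CPM of 10 smooth muscle genes and 798 CPM of 14 B-cell genes, while the 22 ileum libraries other than this one and replicate 5 had 2164 to 5857 CPM and 2578 to 4881 CPM. Ileum day 7 high growth replicate 5 had 15016 CPM of 32 translation initiation factors, against 8217 to 10224 CPM in those 22, and its ribosomal protein genes stood apart as described below. Hypothalamus day 39 low growth replicate 1 had 4682 CPM of 6 pituitary genes, against at most 13.7 CPM in the other hypothalamus libraries.

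A ribosome is built from a small subunit, which reads the message, and a large subunit, which joins amino acids. Most standard proteins are needed in one copy per ribosome, so cells make the proteins in matched amounts, and their messages share a pyrimidine tract at the start through which growth signalling by mTOR controls their translation. Surplus proteins are degraded, and RPL5 and RPL11 with the smallest ribosomal RNA also bind MDM2, the regulator of p53. In the intestine, dividing crypt cells, secretory cells and activated B cells are known for high ribosome production. Values below are CPM, a gene's counts over the library total after trimmed-mean scaling. They are not divided by message length, so levels are compared between samples and not between genes.

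Ribosomal protein genes were higher in ileum than in hypothalamus. Of the 50 members with enough counts to be tested, 49 were higher in ileum and 0 were lower (edgeR's quasi-likelihood test, Benjamini-Hochberg adjusted p under 0.05 over 16976 genes). Among all genes tested, 85.1% were called in either direction, 40.7% were called higher in ileum and 44.4% lower. The median log2 fold change of the 50 members was 1.32, against -0.081 for all genes tested. In bulk tissue, more cells that make much of a message and more of it per cell cannot be told apart. The member not called was RPL3L, and the member not tested was RPL10L.

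The family took 2.14% to 5.22% of all counts in the 24 ileum libraries (median 3.70%) and 0.968% to 1.89% in the 24 hypothalamus libraries (median 1.33%). The 2 ranges did not overlap, although ileum day 7 high growth replicate 1, the lowest ileum library, came close to the highest hypothalamus library. Means were 3.897% ± 0.71 in ileum and 1.35% ± 0.22 in hypothalamus (SD, n = 24 each). These shares are of the 51 genes found and not of the whole ribosome.

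**Figure D1:**
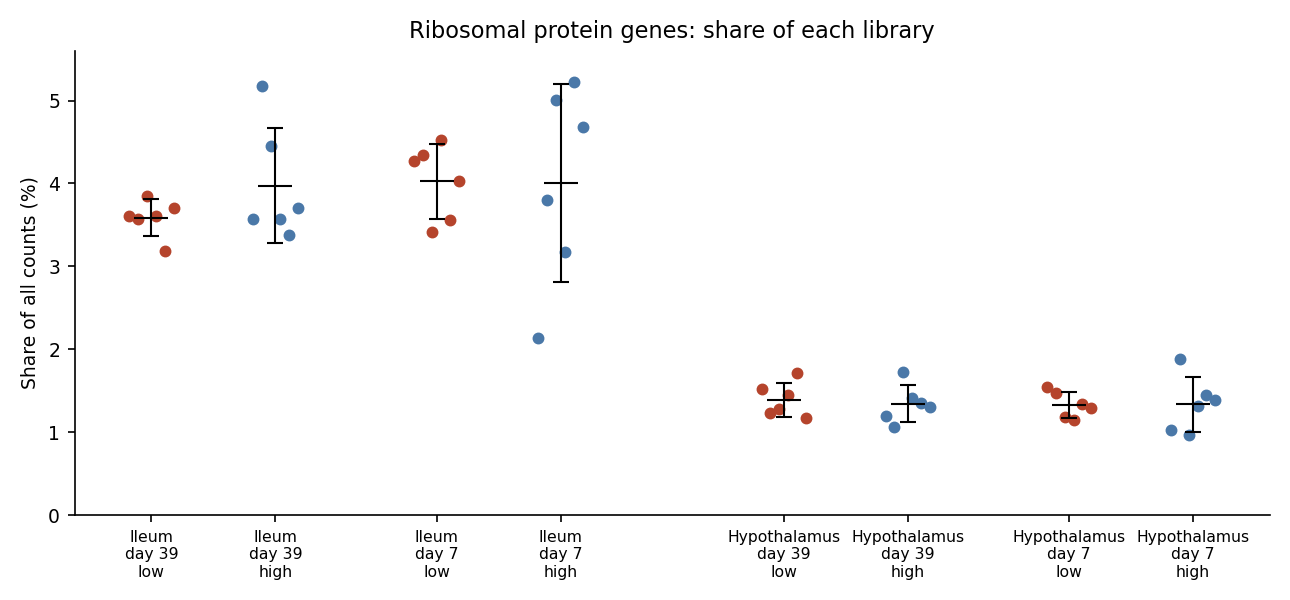
Share of all estimated counts taken by the 51 ribosomal protein genes (y axis, percent) in each library of the 8 groups (x axis, tissue, day and growth), with points for libraries, long ticks for group means and bars for the SD (n = 6 each). The ileum libraries sit between 2.14% and 5.22%, all above the hypothalamus libraries, and low growth (red) and high growth (blue) overlap in each pair.

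RPL28 had the largest difference between tissues. RPL28, a large-subunit protein (chr6:59556586-59559337, build Sscrofa11.1), had a lowest, median and highest value of 391, 838 and 2023 CPM in ileum and 133.03, 186 and 304 CPM in hypothalamus. Every ileum library was above every hypothalamus library, with a log2 fold change of 2.25 ± 0.13 (SE; edgeR's quasi-likelihood adjusted p = 2.7e-20). RPS20, a protein of the small-subunit head, was 3.92-fold higher in ileum and RPLP0, the base of the stalk, 3.89-fold.

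Of the 50 members, 16 had every ileum library above every hypothalamus library, and 10.8% of all genes tested did. The widest separation was that of RPL29, whose lowest ileum library (453 CPM) was 1.44 times its highest hypothalamus library (314 CPM). RPL36A followed at 1.42 times and RPL3 at 1.39 times. RPL3, which sits close to the catalytic centre of the large subunit (chr5:8922697-8929768), had 759, 1284 and 2049 CPM in ileum and 289, 390 and 547 CPM in hypothalamus. Its log2 fold change of 1.74 ± 0.085 had the lowest p of the family (adjusted p = 2.8e-23), before RPL36A (4.1e-23) and RPL29 (6.4e-22). RPS3 and RPS15A were just outside this group, with the lowest ileum library at 0.998 and 0.993 times the highest hypothalamus library.

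The smallest called differences were those of RPS28, RPL26L1, RPL27 and RPS27L. RPS28, a small protein beside the message exit (chr2:70953706-70954862), had 140.8, 193 and 338 CPM in ileum and 74.7, 122 and 168 CPM in hypothalamus. The 2 tissues overlapped, and the log2 fold change was 0.73 ± 0.092 (adjusted p = 8.8e-10). RPL27, a large-subunit protein, had 185, 315 and 412 CPM in ileum and 145, 182 and 251 CPM in hypothalamus, also with overlap (log2 fold change 0.77 ± 0.083). Called members spanned 1.66-fold for RPS28 to 4.74-fold for RPL28.

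The stalk proteins and the proteins that bind the smallest ribosomal RNA lay within this range. The stalk, which draws elongation factors to the large subunit, is built of RPLP0, RPLP1 and RPLP2, and their log2 fold changes were 1.96 ± 0.12, 1.32 ± 0.11 and 1.42 ± 0.13. RPLP0 had 1189, 2360 and 3624 CPM in ileum and 405, 569 and 1133 CPM in hypothalamus. RPLP1 had 653, 1018 and 1902 CPM in ileum and 295, 421 and 685 CPM in hypothalamus. Only RPLP0 of the 3 had no overlap between tissues. RPL5 and RPL11, the partners of that RNA and of MDM2, were at 1.16 ± 0.11 and 1.24 ± 0.11, so 2.24-fold and 2.36-fold higher in ileum.

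Among the close copies, RPL3L stood apart from the family. It encodes a copy of RPL3 that in human and mouse is made mainly in heart and skeletal muscle (chr3:40004907-40016702). RPL3L had 0.071, 1.15 and 2.49 CPM in ileum and 0.89, 1.25 and 2.31 CPM in hypothalamus. The ileum range contained the hypothalamus range. Its log2 fold change was -0.35 ± 0.19 (95% interval -0.73 to 0.040; edgeR's quasi-likelihood adjusted p = 0.089). It was called lower in ileum by DESeq2 (-0.40, adjusted p = 0.029) and by limma voom (-0.46, adjusted p = 0.035), so its call depends on the test. RPL3 itself differed by 1.74 in the other direction.

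RPL36AL, a copy of RPL36A in which the 2 human proteins are nearly identical, had the smaller log2 fold change of the pair, a difference that was not tested. RPL36AL had 95.3, 124 and 178 CPM in ileum and 43.8, 68.3 and 99.5 CPM in hypothalamus (log2 fold change 0.84 ± 0.084). RPL36A had 76.4, 136.5 and 216 CPM in ileum and 25.3, 37.5 and 53.7 CPM in hypothalamus (1.87 ± 0.092). Reads of near-identical messages can be assigned to either copy, so how the total is divided between RPL36A and RPL36AL is uncertain, and the same holds for any unlisted processed copies in the pig genome. RPL7L1, a nucleolar relative of RPL7 that acts in ribosome assembly, was at 1.30 ± 0.087 and RPL7 at 1.25 ± 0.12. RPL26L1, a near twin of RPL26, was at 0.73 ± 0.089, and RPS27L, a copy of RPS27 that is a p53 target in human cells, at 0.78 ± 0.092. RPL26 and RPS27 are not analysed here.

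RPL10L, a copy of RPL10 known from the testis of mouse and human, was nearly absent. It was listed at 0 in all 12 hypothalamus libraries of day 39, and no library of the study held over 10 counts of it except 1 low growth (161 counts, 9.85 CPM) and 1 high growth (7.38 CPM) ileum library of day 7.

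**Figure D2:**
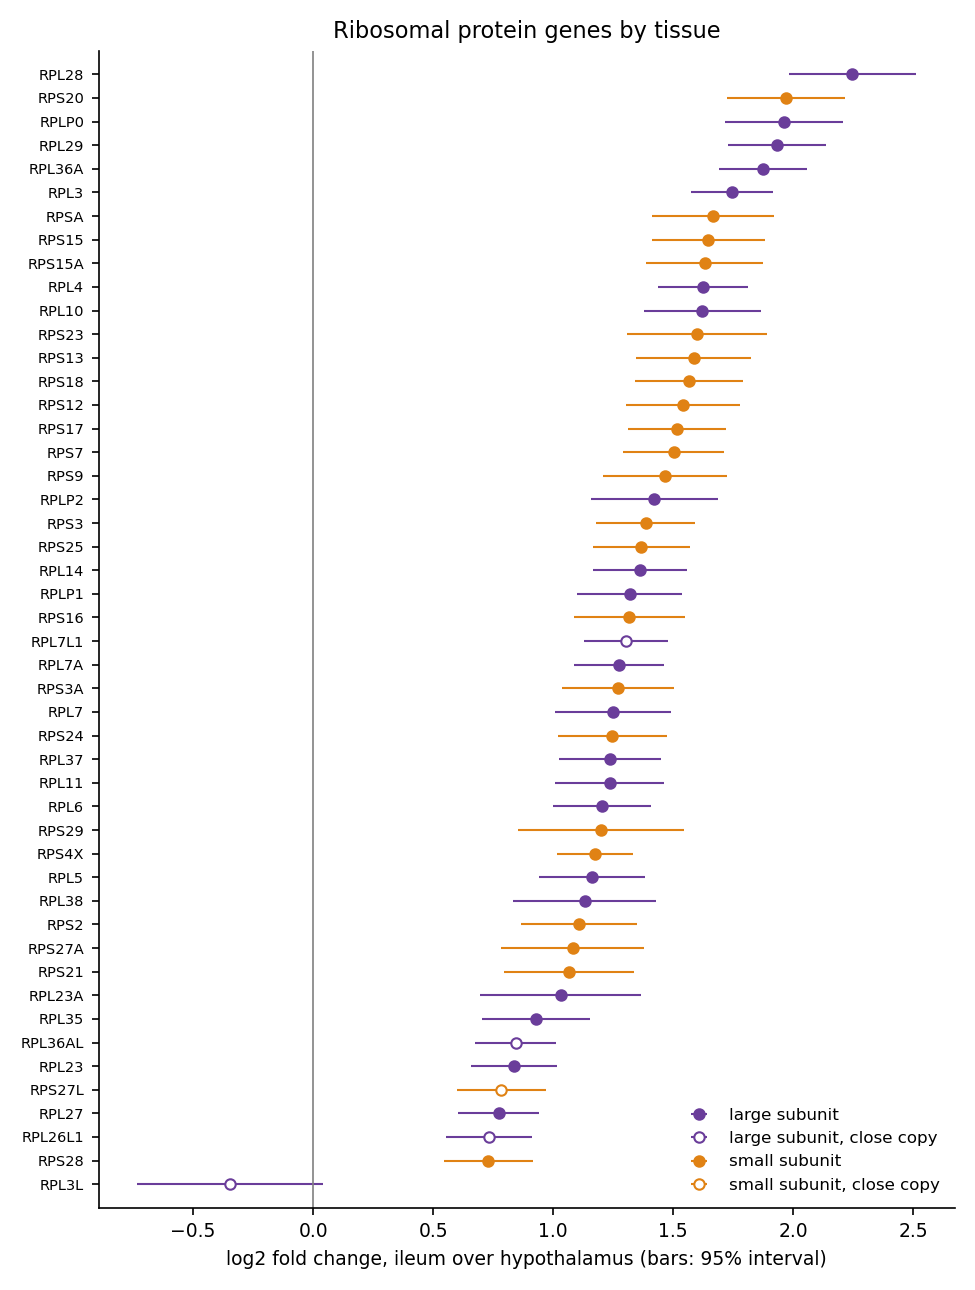
Log2 fold change of ileum over hypothalamus (x axis) for 48 of the 50 tested ribosomal protein genes (y axis, ordered by value), with 95% intervals, colours for the subunit and open symbols for close copies. All genes shown except RPL3L lie to the right of 0, from 0.73 for RPS28 to 2.25 for RPL28, and the 2 subunits are mixed.

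The tissue difference was present on both days. On day 39, 49 members were higher in ileum, where 37.8% of all genes tested were higher and 79% were called in either direction. Their median was 1.29 on the log2 scale. On day 7 the same 49 were higher, where 38.5% of all genes tested were higher and 79.6% were called in either direction, and the median was 1.39. The difference between the 2 days was tested for each gene, and 0 of 50 members passed (0.0295% of all genes tested did, 0.0118% higher and 0.0177% lower). RPS29 had the largest such difference, a log2 value of -0.71 ± 0.34 (unadjusted p = 0.040, edgeR's quasi-likelihood adjusted p = 0.36). It was -0.32 ± 0.26 (adjusted p = 0.72) without the 3 libraries described above as apart for GAD1 and GAD2, smooth muscle genes or initiation factors, a choice made after seeing the data. DESeq2 and limma voom also called 0 members for that difference. Without those 3 libraries, 49 members were higher in ileum over both days, with a median of 1.34.

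Genes of both subunits were higher in ileum. The median standard large-subunit gene was 2.42-fold higher in ileum (log2 1.27, range 0.77 to 2.25, 21 genes) and the median standard small-subunit gene 2.80-fold (log2 1.48, 24 genes, the lowest at 0.73). The summed CPM of large-subunit members over that of small-subunit members, as log2, was -0.0027 ± 0.058 in ileum and 0.023 ± 0.064 in hypothalamus (SD, n = 24 each), and the libraries overlapped. In 47 of the 48 libraries this ratio lay between -0.10 and 0.12. The exception was ileum day 7 high growth replicate 5, at -0.24. With the median standard gene of each subunit in place of sums, the log2 ratio was 0.13 ± 0.13 in ileum. It was 0.34 ± 0.097 in hypothalamus (SD, n = 24 each), and the libraries overlapped.

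Other parts of the translation machinery were also mostly higher in ileum, in a comparison where 40.7% of all genes tested were called higher and 44.4% lower. RACK1, a scaffold protein on the small subunit, and FAU, which encodes a small-subunit protein fused to a ubiquitin-like one, were at log2 2.36 and 1.54. Of 53 ribosome biogenesis genes, 43 were higher and 5 lower (median 0.87), with the nucleolar proteins NPM1 at 1.92 and FBL at 2.38 and HEATR1 at 1.58. Of 32 initiation factors, 22 were higher and 8 lower (median 0.86), led by PABPC1, the poly(A)-binding protein, at 2.66. Of 8 elongation factor genes, 6 were higher and 2 lower (median 1.002), and EEF1A2, the form of the tRNA-delivering factor used in neurons and muscle, was at -7.25. Of 64 mitochondrial ribosomal protein genes, 49 were higher and 6 lower, with a median of 0.46, below the 1.32 of the cytosolic genes. Of 17 genes of mTOR signalling, MYC and LARP1, 6 were higher and 7 lower (median -0.060), near the shares over all genes tested.

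The study also compared low growth with high growth piglets. No ribosomal protein gene passed in either tissue on either day, and 0% of all genes tested did. At an unadjusted p under 0.05, 1 member (RPS27A in ileum on day 7) and 162 to 1217 of all genes stood in the 4 comparisons. DESeq2 and limma voom also called 0 members in each. The lists of elongation and initiation factors, ribosome biogenesis, mitochondrial ribosomal proteins and mTOR signalling likewise had 0 genes called. In ileum on day 39 their medians were -0.054, -0.053, -0.098, -0.13 and 0.010 in that order. The groups overlapped for every member described below, so these comparisons are given as values with their intervals.

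In ileum on day 39, the family took 3.18% to 3.85% of counts in low growth libraries (median 3.61%) and 3.37% to 5.18% in high growth libraries (median 3.64%). The medians were close, and 2 high growth libraries lay above all low growth libraries. Of 50 members, 48 had a log2 fold change below 0, with a median of -0.19, against -0.0039 for all genes tested. Since members move together from library to library, this count is not 48 separate observations. Without ileum day 39 high growth replicate 2, the library with the largest share, the median was -0.056.

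RPS21, a small protein of the small subunit, had the lowest p in ileum on day 39. It had 129, 191 and 254 CPM in low growth libraries and 205, 230 and 376 CPM in high growth libraries, with overlap. Its log2 fold change was -0.41 ± 0.25 (95% interval -0.92 to 0.10; edgeR's quasi-likelihood adjusted p = 0.999). All ileum groups share the estimate of spread. Without day 7 high growth replicate 5 the RPS21 value was -0.41 ± 0.19 (unadjusted p = 0.039, edgeR's quasi-likelihood adjusted p = 0.98). RPS15 (-0.33), RPS9 (-0.35), RPL35 (-0.30) and RPLP2 (-0.37) followed. Without high growth replicate 2, the values were -0.27 for RPS21, -0.079 for RPS15, -0.11 for RPS9, -0.086 for RPL35 and -0.11 for RPLP2. RPL3 averaged 1306 ± 86.7 CPM in the low growth group, against 1498 ± 401 CPM in the high growth libraries (SD, n = 6 each), with a 95% interval of -0.58 to 0.18 for the log2 fold change.

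In ileum on day 7, the family took 3.41% to 4.53% of counts in low growth libraries (median 4.15%) and 2.14% to 5.22% in high growth libraries (median 4.24%). The low growth libraries lay inside the range of the high growth libraries, whose 2 extremes were replicates 1 and 5. The median log2 fold change of the members was -0.084 (33 of 50 below 0), against -0.052 for all genes tested. Leaving out high growth replicate 1 gave -0.21 and leaving out replicate 5 gave 0.077, so its sign rested on single libraries. Without both, an alternative chosen after seeing the data, it was -0.073.

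RPS27A, which is made as a fusion with ubiquitin (chr3:85989609-85992257), had 572, 701 and 799 CPM in low growth ileum on day 7, against 374, 737 and 3742 CPM in high growth ileum. The medians were close and 1 high growth library, replicate 5, was far above the rest. Its log2 fold change of -0.75 ± 0.36 (unadjusted p = 0.045, edgeR's quasi-likelihood adjusted p = 0.85) was 0.099 ± 0.18 without that library. RPS23, a protein of the decoding centre, and RPS13 went likewise, being at -0.53 and -0.39 with the library and at 0.094 and 0.067 without it. RPL26L1 had 35.8, 49.8 and 54.9 CPM in the low growth group, against 33.97, 56.2 and 118.01 CPM in the high growth libraries (log2 fold change -0.40 ± 0.21). RPL7L1 was at -0.36 ± 0.20. Without high growth replicate 5, RPL26L1 was at -0.11 ± 0.15 and RPL7L1 at -0.20 ± 0.19.

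In hypothalamus on day 39, the family took 1.17% to 1.71% of counts in low growth libraries (median 1.36%) and 1.07% to 1.73% in high growth libraries (median 1.33%). The ranges nearly coincided. The median log2 fold change was 0.021 (28 of 50 above 0), the same as the 0.021 of all genes tested. Leaving out low growth replicate 1, the library with pituitary genes, gave 0.030, leaving out low growth replicate 3 gave 0.050, leaving out low growth replicate 5 gave -0.11, and leaving out high growth replicate 3 gave 0.12. RPS28 had 95.1, 130 and 167 CPM in the low growth group, against 94.1, 111.8 and 151 CPM in the high growth libraries, with overlap (log2 fold change 0.20 ± 0.18, 95% interval -0.16 to 0.57). RPL26L1 (0.16), RPS21 (-0.28), RPS25 (0.19) and RPL28 (-0.14) followed by p. RPL26L1 was at 0.033 without low growth replicate 3. RPS28 was at 0.12 and RPS25 at 0.063 without low growth replicate 5, and RPL28 at -0.22. RPS21 was at -0.11 and RPL28 at -0.034 without high growth replicate 3.

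In day 7 hypothalamus, the share was 1.15% to 1.55% in low growth libraries (median 1.32%) and 0.968% to 1.89% in high growth libraries (median 1.35%). The low growth libraries lay within the range of the high growth ones. The median log2 fold change was -0.086 (40 of 50 below 0), against 0.010 for all genes tested. With library totals as the only scaling it was -0.010, without high growth replicate 2 it was 0.060, and without high growth replicate 3 it was -0.18. RPS27L had 21.2, 24.7 and 31.2 CPM in the low growth group, against 21.7, 32.7 and 40.6 CPM in the high growth libraries, with overlap (log2 fold change -0.29 ± 0.18; edgeR's quasi-likelihood adjusted p = 0.72). RPS3A (-0.20), RPL14 (-0.17), RPS4X (-0.14) and RPL26L1 (-0.11) followed. Without high growth replicate 2, RPL14 was at -0.0041 and RPS3A at -0.080, and without high growth replicate 3, RPL14 was at -0.28 and RPS4X at -0.24.

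**Figure D3:**
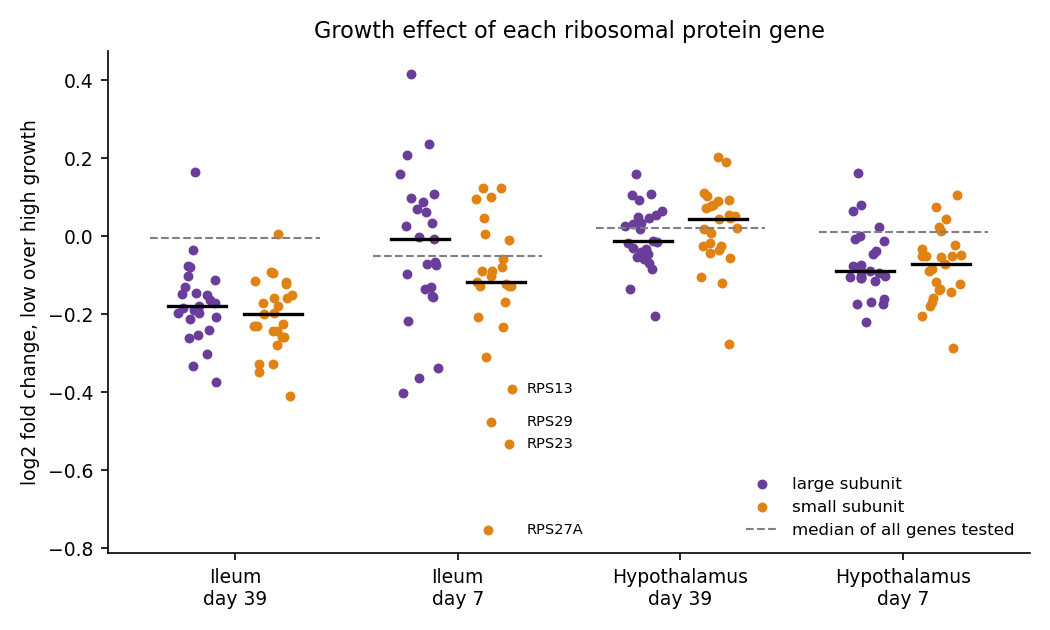
Log2 fold change of low over high growth (y axis) of the 50 tested ribosomal protein genes in each tissue and day (x axis), with points for genes, colours for the subunit, black lines for subunit medians and dashed lines for the median of all genes tested. The points lie between -0.75 and 0.42, most lie below the dashed line in ileum on day 39, and the 4 labelled small-subunit genes in ileum on day 7 lie at 0.067 to 0.40 without 1 high growth library.

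The growth effects were also compared with each other. The difference between the growth effects of day 39 and day 7 passed for 0 members in ileum (0% of all genes tested) and 0 in hypothalamus (0%). The difference between the growth effects of ileum and hypothalamus passed for 0 members on day 39 (0.0471% of all genes tested) and on day 7 (0%). RPS27A had the largest of these values in ileum between days, 0.64 ± 0.50, and it was -0.21 ± 0.24 without day 7 high growth replicate 5. At an unadjusted p under 0.05 there were 0 members in these 4 comparisons, and DESeq2 and limma voom called 0. Without ileum day 7 high growth replicate 5, 2 members had an unadjusted p under 0.05 for the difference between days in ileum. RPL38 was at -0.55 ± 0.25 and RPS29 at -0.64 ± 0.29 (unadjusted p = 0.035 and 0.036, edgeR's quasi-likelihood adjusted p = 0.998 for both). RPS21 was close to them, at -0.55 ± 0.27 (edgeR's quasi-likelihood unadjusted p = 0.055). The large-to-small ratio of summed CPM gave no separation by growth. It averaged 0.015 ± 0.040 in low growth and -0.011 ± 0.029 in high growth ileum on day 39, and 0.0068 ± 0.087 and 0.052 ± 0.056 in low and high growth hypothalamus on that day (SD, n = 6 each).

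Between day 39 and day 7, no ribosomal protein gene passed in ileum (0.439% of all genes tested did) or in hypothalamus (0.0315%). DESeq2 and limma voom also called 0 members. At an unadjusted p under 0.05 there were 2 members in ileum, where 1350 of all 15256 genes tested stood, and 0 in hypothalamus, where 1527 of 15865 did. The median log2 fold change of the members in ileum was -0.067. It was -0.019 without day 7 high growth replicate 5 and -0.14 without day 39 high growth replicate 2. In hypothalamus the median was -0.0090, and it was 0.065 without day 7 high growth replicate 2, -0.067 without day 39 high growth replicate 3 and 0.0025 without day 39 low growth replicate 1. RPS29, a zinc-binding protein of the small-subunit head (chr1:179454923-179456847), had 62.6, 135.9 and 163 CPM in ileum on day 39 and 119.04, 144.1 and 839 CPM on day 7. The medians were close, and the highest value was that of 1 day 7 library. Its log2 fold change of -0.74 ± 0.27 (unadjusted p = 0.011, edgeR's quasi-likelihood adjusted p = 0.35) was -0.31 ± 0.14 without day 7 high growth replicate 5.

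RPL3L was the member of next lowest p in ileum, in the other direction. It had 0.69, 1.38 and 2.56 CPM on day 39 and 0.075, 0.93 and 1.45 CPM on day 7, with overlap (log2 fold change 0.71 ± 0.31, unadjusted p = 0.031, adjusted p = 0.51). In hypothalamus RPL3L had 0.92, 1.52 and 2.27 CPM on day 39 and 0.88, 1.13 and 1.97 CPM on day 7 (0.35 ± 0.20, unadjusted p = 0.098). RPS28 (-0.27), RPL38 (-0.36) and RPS27A (-0.43) followed in ileum, and they were at -0.20, -0.14 and -0.012 without day 7 high growth replicate 5. The next values in hypothalamus were those of RPL23A (-0.26), RPS2 (-0.20), RPL7L1 (-0.10) and RPL3 (0.10). RPS2 was at -0.13, RPL7L1 at -0.064 and RPL3 at 0.17 without day 7 high growth replicate 2. RPL3 had intervals of -0.24 to 0.30 in ileum and -0.12 to 0.32 in hypothalamus.

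The members varied together between libraries of one tissue. The Spearman correlation of a member with the median of the other standard members had a median of 0.85 over the 24 ileum libraries and 0.93 over the 24 hypothalamus libraries, as a description of libraries that also share depth and scaling. It was above 0.8 for 31 of 50 members in ileum and 45 of 50 in hypothalamus. The SD of log2 CPM within groups had a median of 0.37 in ileum and 0.38 in hypothalamus, and after the common movement of the family was taken off it was 0.21 and 0.14. RPS12 and RPLP0 were among those that followed the family most closely in ileum (0.96 each), and RPLP2 (0.98) and RPLP1 (0.97) in hypothalamus.

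A few members did not follow. RPL3L had correlations of 0.10 in ileum and -0.23 in hypothalamus, at levels of about 1 CPM where counts are few. RPL23A, a protein at the exit of the peptide tunnel, had 0.41 and 0.31. It ranged from 206 to 1185 CPM in ileum and from 92.6 to 530 CPM in hypothalamus, and its within-group SDs of 0.60 and 0.63 on the log2 scale were near the largest of the family. RPS29 followed in hypothalamus (0.89) and less so in ileum (0.44). RPL26L1 and RPL7L1 were at 0.57 and 0.63 in hypothalamus.

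The common level of the family moved with some of the marker lists. In ileum, the mean log2 CPM of the members had a Pearson correlation of 0.71 and a Spearman correlation of 0.66 with the summed CPM of 14 B-cell genes, and 0.86 and 0.88 with that of 53 ribosome biogenesis genes (24 libraries). Without the 2 libraries of most extreme marker level the Pearson values were 0.63 and 0.84. In hypothalamus it had 0.63 and 0.87 with 10 myelin genes and -0.81 and -0.77 with 10 neuronal genes (24 libraries), and without the 2 most extreme libraries 0.84 and -0.71. Other lists in ileum had Pearson correlations of 0.42 (crypt and cycling genes), 0.047 (T cells), 0.030 (microglia and macrophages), -0.23 (enterocytes), -0.39 (smooth muscle) and -0.73 (astrocyte genes). Their Spearman correlations, in that order, were 0.45, -0.094, 0.083, -0.23, -0.15 and -0.65. Without the 2 most extreme libraries the Pearson value was 0.27 for crypt and cycling genes, -0.076 for smooth muscle genes and -0.64 for astrocyte genes. In hypothalamus, astrocyte genes were at 0.50, microglia and macrophage genes at -0.079 and T-cell genes at 0.11. The B-cell genes had a Pearson correlation of 0.36 and a Spearman correlation of 0.64 in hypothalamus. Without the 2 most extreme libraries that Pearson value was 0.70. The relation to B-cell genes was thus not particular to ileum. In ileum, 8 regional genes of the hypothalamus, at most 15.51 CPM in sum, had 0.64 and 0.55, and a Pearson value of 0.39 without the 2 most extreme libraries. Among translation lists, Pearson and Spearman values in ileum were 0.79 and 0.81 for mitochondrial ribosomal proteins and 0.69 and 0.80 for initiation factors. Elongation factors were at 0.72 and 0.58, and the list of mTOR signalling, MYC and LARP1 at -0.55 and -0.67. In hypothalamus the values were 0.79 and 0.83, 0.75 and 0.77, 0.68 and 0.65, and -0.39 and -0.35 in that order. Ribosome biogenesis genes were at 0.41 and 0.56 there. The myelin sum itself ran from 496 to 169040 CPM across hypothalamus libraries. The part of these cell markers in the family's level was not tested. Lists and members share library, depth and scaling.

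**Figure D4:**
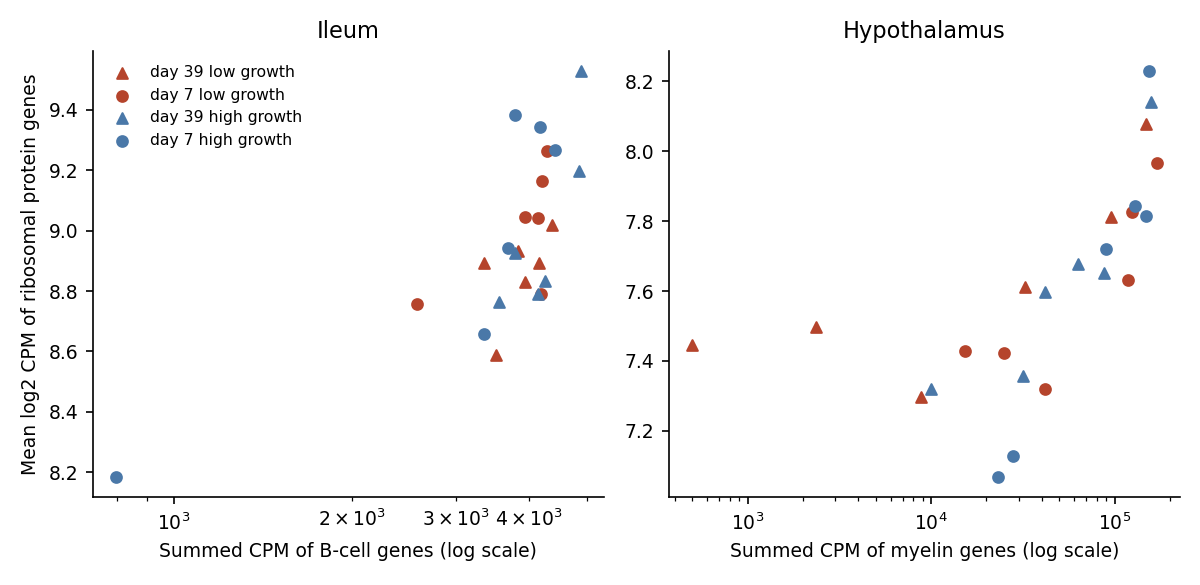
Mean log2 CPM of the ribosomal protein genes (y axis) against the summed CPM of 14 B-cell genes in ileum (left, log x axis) and of 10 myelin genes in hypothalamus (right, log x axis), 1 point per library, with colours for growth and symbols for day. The hypothalamus libraries of highest myelin sum, up to 169040 CPM, are among those of highest family level, and the ileum library at 798 CPM of B-cell genes, day 7 high growth replicate 1, has the lowest.

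Ileum day 7 high growth replicate 1 was the lowest ileum library for 41 of the 50 members. Ileum day 7 high growth replicate 5 differed in makeup instead. Relative to the median standard gene of the library, 22 members were above and 14 below all 23 other ileum libraries. These counts, and that of replicate 1, were not made over all genes, so they are not shown to be particular to the family. RPS29 and RPS27A were 2.17 and 2.13 higher on the log2 scale than their mean over ileum, RPS23 was 1.69 and RPS13 1.33 higher. RPLP2 was 1.63, RPL28 1.33 and RPS2 1.03 lower on that scale.

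In CPM, RPS27A in that library (3742 CPM) was 3.94 times the highest other ileum library (949 CPM), and RPS29 (839 CPM) was 2.76 times. RPS23 was at 2139 CPM against at most 823 CPM, and RPL7, a large-subunit protein, at 3059 CPM against at most 1324 CPM. RPLP2 was at 191 CPM against at least 295 CPM elsewhere. Members of both subunits were thus on either side, and the sum of the small subunit was higher relative to the large one. The same library had 4851 CPM of 16 crypt and cycling genes (2437 to 3336 CPM in the 22 others), 384 CPM of 8 microglia and macrophage genes (769 to 1771 CPM) and the fewest genes with 10 counts, 13921. It also had the lowest total of the ileum libraries, 14.36 M counts, and the number of genes with 10 counts depends on depth. Its share of mitochondrially encoded genes, 1.79%, was the lowest in ileum too. The part of these features in the makeup was not tested.

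**Figure D5:**
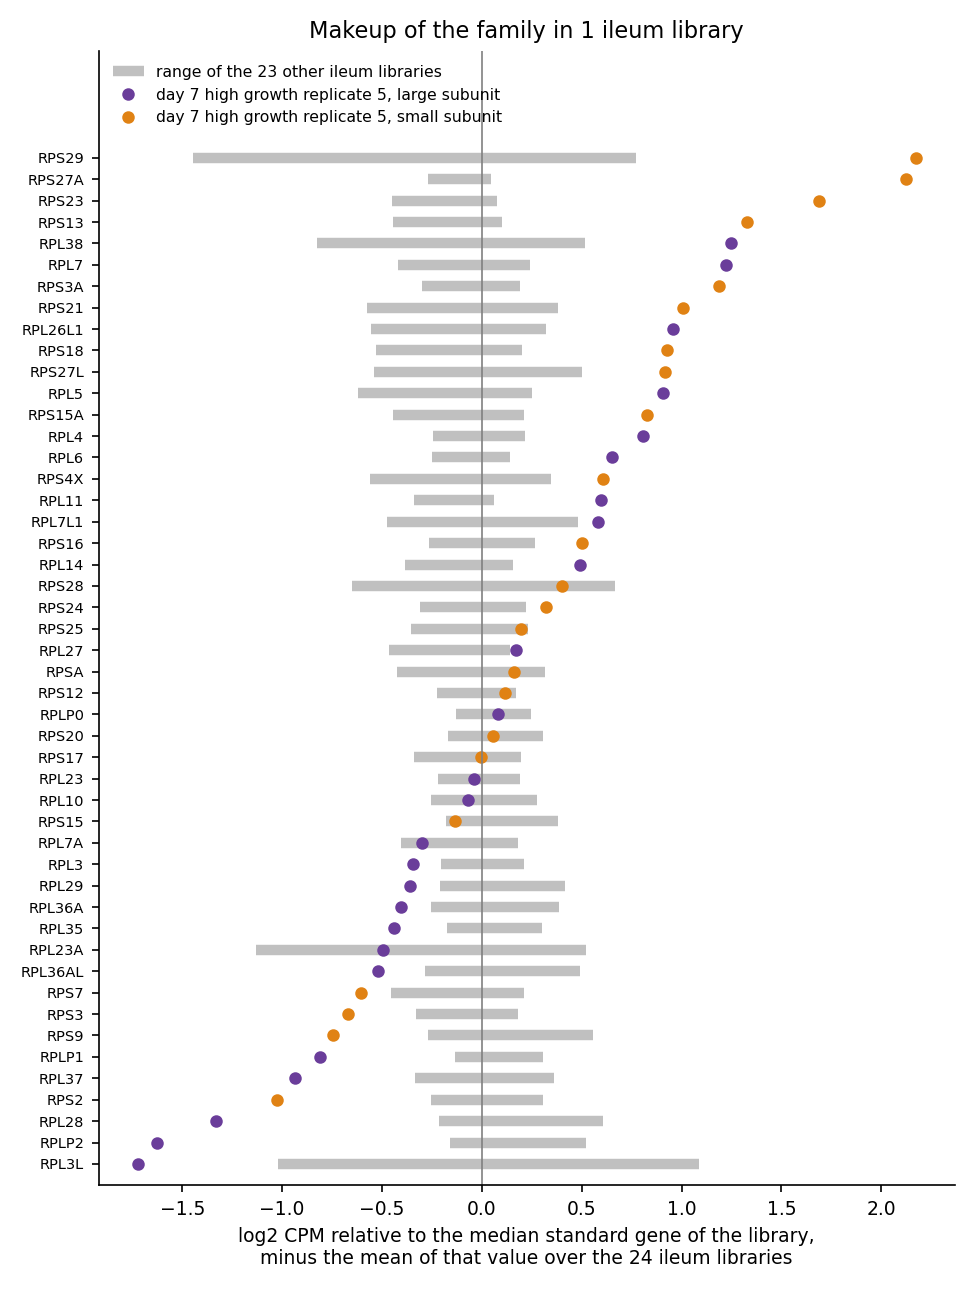
Level of 48 of the 50 tested ribosomal protein genes (y axis) relative to the median standard gene of the same library, as log2 with the mean over the 24 ileum libraries taken off (x axis), in ileum day 7 high growth replicate 5 (points, coloured by subunit) and in the 23 other ileum libraries (grey bars, lowest to highest). RPS29 at 2.17 and RPS27A at 2.13 lie to the right of their grey bars, and RPLP2 at -1.63 and RPL28 at -1.33 to the left of theirs.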

How the data were processed

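Poly(A) RNA of 48 pig libraries was sequenced as paired reads. The deposited table holds estimated counts per gene, made with Trim Galore, kallisto and build Sscrofa11.1, per the submitters' processing notes, which also name DESeq2 and give no versions. Neither the order of these steps nor the annotation release is stated in the labels. Of the values, 53.0% were not whole, and they were rounded here, by at most 0.5. Symbols were matched through a table of gene IDs, and 14894 of 22924 IDs had one. Gene positions are those of RefSeq for the same build.

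Genes were filtered with filterByExpr (minimum count 10, minimum total 15), scaled by trimmed means and tested with edgeR 4.0.16 in R 4.3.3 (glmQLFit and glmQLFTest, two-sided, Benjamini-Hochberg adjusted p under 0.05 over all genes tested). Each tissue was fitted alone with 4 groups (15256 genes in ileum, 15865 in hypothalamus), and both were fitted together with 8 groups (16976 genes). Intervals are 95%. CPM within a tissue use that tissue's scaling, and CPM in the tissue comparison use the scaling over 48 libraries, so a gene's values differ slightly between them. Only the growth test of day 39 in each tissue was tried on simulated counts, with independent genes, a fixed spread and no outlying library. The other tests were not simulated. Replicates were numbered in accession order, no 2 libraries were identical, and depth was 14.2 M to 23.2 M counts.

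Named members were, per comparison, the 4 highest and 4 lowest called fold changes and the 4 lowest p, or the 5 lowest p where none was called, with the stalk proteins, RPL5, RPL11 and the close copies, except that 2 members stay in the fits and counts and are not reported here by name. Other genes named, and the genes of the library that stands apart, were chosen after their values were seen. The members and lists were chosen with earlier results of these data known. Alternatives were other scalings, scaling without the members, no filter, DESeq2 1.42.0, limma voom 3.58.1, and libraries left out. Leaving out the libraries that stand apart together, and the replicate block by library names, were added after seeing the data.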

Additional observations from a re-analysis of the deposited data

Results flagged for a closer look

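In 96 groups of 6 libraries, over 10 genes' CPM and family scores, 8 groups held a library whose gap to its neighbour exceeded 0.625 of the group's range. Chance flags about 1 in 20 groups where groups are independent and unselected. Here the 10 genes were members of lowest p in the comparisons and close copies, and members move together, so that rate is no yardstick. Of the 8 flagged groups, 5 came from ileum day 7 high growth replicate 5. RPS27A was at 3742 CPM there, RPS29 at 839 CPM, RPS21 at 561 CPM and RPS27L at 111.34 CPM, each the highest of its group, and the log2 ratio of the large to the small subunit was -0.242, the lowest. In hypothalamus day 39 high growth replicate 3, RPS27A was at 486 CPM and RPS21 at 185 CPM, the highest of their group. In ileum day 39 high growth replicate 2, RPL36AL was at 187 CPM, against a group median of 123.14 CPM.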

How the results depend on the processing

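The counts of members called (49 in the tissue comparisons, 0 elsewhere) were within 1.5 times under each alternative run, and the 50th call under DESeq2, limma voom and the replicate block was RPL3L, lower in ileum. The median tissue difference ranged from 1.27 to 1.39. The difference between tissues in the large-to-small ratio was -0.025, and -0.146 with medians of members, close copies included, in place of sums. The cause was not tested. With single libraries left out, the ileum day 7 growth values ranged from -0.93 to 0.099 for RPS27A, from -0.71 to 0.094 for RPS23 and from -0.54 to 0.067 for RPS13, and the difference of RPS27A growth effects between days from -0.21 to 0.82. In the alternatives added after seeing the data, that difference was -0.057 without ileum day 7 high growth replicates 1 and 5. The differences of growth effects between tissues on day 7 were 0.0045 for RPS23 and 0.041 for RPS27A without the 3 libraries that stand apart, against -0.43 and -0.63 with them. The order of library names puts 24 ileum and 24 hypothalamus libraries in pairs of like day and growth, and the labels do not say that a pair is one animal. Deviations from the group means correlated at -0.069 to 0.19 within pairs, above 0.1 in 10 of 24. With that order as a replicate block, added after seeing the data, 50 members were called between tissues (49 higher; RPL3L -0.42, adjusted p = 0.040), with a median of 1.32, and 0 in the differences of effects. Depth limits RPL3L and RPL10L, which had few counts.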
